A study of Mus musculus with 2 samples.

Results

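The platelet-derived growth factor (PDGF) system and a set of hepatic stellate cell markers were examined in mouse liver, in 10 genes: the ligands Pdgfa, Pdgfb, Pdgfc and Pdgfd, the receptors Pdgfra and Pdgfrb, and the markers Des, Lrat, Reln and Vim. The members were the gene probes that carry one of these 10 names on the array, 12 probes on 30 spots of each array, out of 39429 gene probes. The rule uses names and no signal, but the 10 genes were chosen with earlier results of these data known. The study set a Drp1 knockout liver against a wild type liver, and Drp1 (gene Dnm1l) is a GTPase related to dynamin that cuts mitochondria apart. The groups, Drp1 knockout and wild type, had 1 array each, on the same slide, with liver RNA of male C57BL/6J mice. How many mice gave RNA to an array is not given in the sources used here. The mice had been kept on a high-fat diet (24% fat from lard, 45% of the calories) for 24 weeks, starting at 4 weeks of age. The series title places the disruption in the liver. The allele, the part of the gene removed and the promoter that drove the removal are not given in the sources used here, nor whether these livers followed the 17-hour fast or the 4-hour refeeding that the study used. Since a group is a single array, the differences are those of 1 pair of RNA samples, without replicates and without a test.

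PDGF ligands are secreted dimers that bind a pair of receptor tyrosine kinases on mesenchymal cells. PDGF-A and PDGF-C act mainly through the alpha receptor, PDGF-B through both receptors and PDGF-D mainly through the beta receptor. In the liver the receptors sit chiefly on stellate cells, the vitamin A-storing cells between hepatocytes and sinusoidal endothelium, which turn into matrix-producing myofibroblasts after injury. PDGF-B is known as a strong mitogen for these cells.

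Of the 9 members measured on both arrays, 5 passed 1.5-fold upward in the knockout, 1 passed it downward and 3 lay between. Pdgfra, Vim and Pdgfa were 3.06-fold, 2.48-fold and 2.02-fold higher in the knockout, Lrat and Pdgfrb were 1.79-fold and 1.74-fold higher, and Reln was 1.67-fold lower. Over all 15385 genes measured on both arrays, 8.42% passed 1.5-fold upward in the knockout and 13.4% downward. At 2-fold the member counts were 3 higher and 0 lower, against 2.91% of all genes higher and 3.64% lower. Because the members were chosen with earlier results of these data known, their distance from these shares is a description and not a test. Pdgfd, the other member, was above background in the knockout liver only. Liver RNA comes from all cells of the tissue, so more cells of a type and more RNA per cell cannot be told apart for any gene below.

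The probes were 60 bases long, and those that show how the values arise are printed here in part or whole from the scanner files, with mm9 positions. The pair of Pdgfa probes (chr5:139452934-139452993 and chr5:139452925-139452984, minus strand) share 51 bases, so they do not check each other independently. The leading 30 bases of each are shown, with the 21 shared bases that fall in both stretches in capitals.
Pdgfa probe 1: actgtagcaCTCAGAGAGACAGTGAGAAAG
Pdgfa probe 2: CTCAGAGAGACAGTGAGAAAGcttccttgt
The Pdgfra probe (chr5:75593888-75593947, plus strand) carries the member with the highest fold and was printed on 10 spots. Its leading 30 bases are shown.
Pdgfra: tgtatatatctgttgctatgtagacttgga
The probes of Pdgfd (chr9:6376926-6376985, plus strand), Des (chr1:75363404-75363629, plus strand) and Reln (chr5:21404915-21404974, minus strand) are shown whole, because these genes depart from the others: seen on 1 array only, near 0, and lower.
Pdgfd: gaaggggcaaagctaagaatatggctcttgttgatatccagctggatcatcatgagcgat
Des: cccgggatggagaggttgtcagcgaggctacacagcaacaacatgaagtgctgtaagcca
Reln: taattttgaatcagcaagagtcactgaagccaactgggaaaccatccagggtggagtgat
The 60 bases of the Des probe cover 226 bases of the genome, so its target is not 1 unbroken stretch of the genome. Exon and UTR annotation was not used here.

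Signals are intensities that the Agilent Feature Extraction program had detrended across each array. The 75th percentile of the gene spots was 722 on the knockout array and 461 on the wild type array, 1.57 times as bright in the knockout. A signal divided by this percentile of its own array is called the scaled level below, and differences are log2 of the knockout's scaled level minus that of the wild type. On an array, a probe was taken as measured when 50% or more of the spots kept for it carried the flag for being well above background, which held for 57.1% of probes on the knockout array and 50.5% on the wild type array. All measured genes had a median difference of -0.11, and the medians of 10 groups by level lay between -0.30, in the brightest, and 0.02. Repeated spots of a probe gave a difference an SD of 0.14 log2 units, which describes measuring error and not the spread between mice. The single Dnm1l probe differed by -0.21, with scaled levels of 1.75 in the knockout and 2.03 in the wild type. Whether it lies in the deleted part is not given, so it checks no label.

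Both receptors gave more signal in the knockout liver. The Pdgfra probe, for the receptor that binds PDGF-A, PDGF-B and PDGF-C, read a scaled level of 0.302 at the lowest, 0.317 at the median and 0.456 at the highest of 10 spots on the knockout array. On the wild type array the 10 spots read 0.0962, 0.103 and 0.152. The spots of the arrays did not overlap, and 10 of 10 were well above background on each. Spot by spot, the log2 difference ran from 1.31 to 1.81 with a mean of 1.62 (SD 0.15, 10 spot positions on 1 pair of arrays). By this value Pdgfra stood at rank 128 from the top of 15385 genes. The highest spot of each array lay at the same position, at 0.456 in the knockout and 0.152 in the wild type. These spots share the RNA, the labelling and the array, so their agreement says nothing of other mice.

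Pdgfrb, the receptor through which PDGF-B and PDGF-D act on pericytes and stellate cells, had a single spot (chr18:61244606-61244665, plus strand). Its signal was 204 ± 21.2 on the knockout array and 75.1 ± 9.77 on the wild type array (± is the error that Feature Extraction gives for a spot). The scaled levels were 0.283 in the knockout and 0.163 in the wild type, a log2 difference of 0.80 ± 0.24. Both receptor probes lie in the second-dimmest of the 10 groups by level, in which 18.5% of genes passed 1.5-fold upward in the knockout. After normexp background correction, Pdgfra differed by 0.76 and Pdgfrb by 0.36, so that Pdgfrb no longer reached 1.5-fold.

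**Figure D1:**
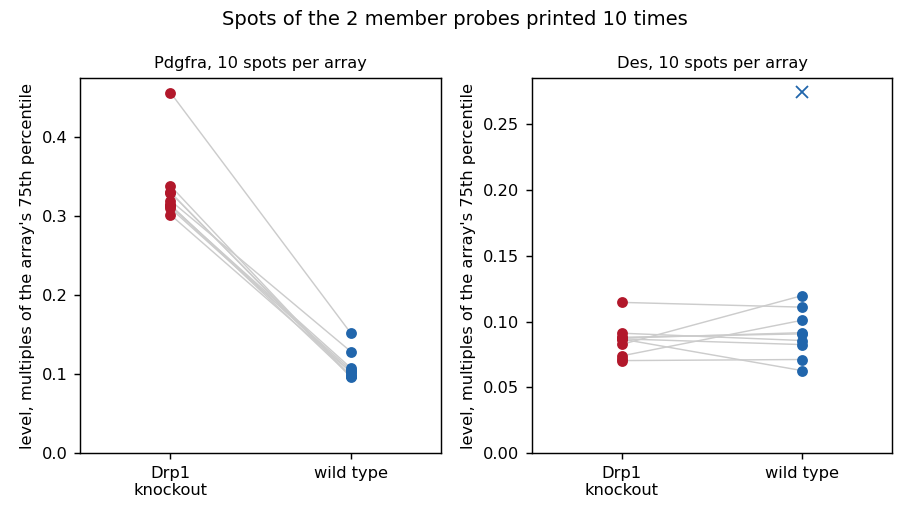
Scaled levels (linear axis) of the 10 spots of the Pdgfra and Des probes on the Drp1 knockout array (red, left) and the wild type array (blue, right); grey lines join spots at the same position, and the cross is a spot marked as an outlier and left out. The knockout spots of Pdgfra lie between 0.302 and 0.456, above all wild type spots, while the Des spots of both arrays share one range.

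Among the ligands, Pdgfa had the greatest measured difference. Pdgfa encodes the A chain, which signals through the alpha receptor. Its probes read signals of 4223 and 3804 on the knockout array and 1382 and 1165 on the wild type array. Scaled levels were 5.85 and 5.27 in the knockout, against 3.00 and 2.53 in the wild type, and both probes were higher in the knockout. The log2 differences were 0.96 and 1.06, each ± 0.20 by the error of Feature Extraction, with a mean of 1.01 that ranked 440 of 15385 from the top. In the group of genes of like brightness, the eighth from the dimmest, 4.48% passed 1.5-fold upward in the knockout.

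The other ligands measured on both arrays differed less. Pdgfc, a latent ligand of the alpha receptor that proteases such as tissue plasminogen activator release (chr3:81017572-81017631, plus strand), had scaled levels of 0.584 in the knockout and 0.397 in the wild type. Its log2 difference of 0.56 ± 0.21 was 1.47-fold, just under the 1.5-fold used here. Pdgfb, the B chain made by endothelium and platelets, had 1 measured probe (chr15:79826376-79826435, minus strand) at 0.250 in the knockout and 0.203 in the wild type. Its difference was 0.30 ± 0.23, which is little more than its own measuring error. The other Pdgfb probe (chr15:79827438-79827497, minus strand) was not well above background on either array. Thus 1 of 2 Pdgfb probes carries the whole value of that gene.

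Pdgfd, a latent ligand of the beta receptor, read a signal of 58.5 ± 8.04 on the knockout array and 6.40 ± 6.37 on the wild type array. It was well above background in the knockout, at a scaled level of 0.0810, and not in the wild type, so that only a bound can be given. Against 0.0593, the lowest wild type level that was well above background, Pdgfd was at least 1.37-fold higher in the knockout. Of the 2174 genes measured on the knockout array only, 26.3% had a bound of at least 1.5-fold, and Pdgfd was not among them. More probes were above background on the knockout array in general (57.1%) than on the wild type array (50.5%), and the part of this in the Pdgfd reading was not tested.

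**Figure D2:**
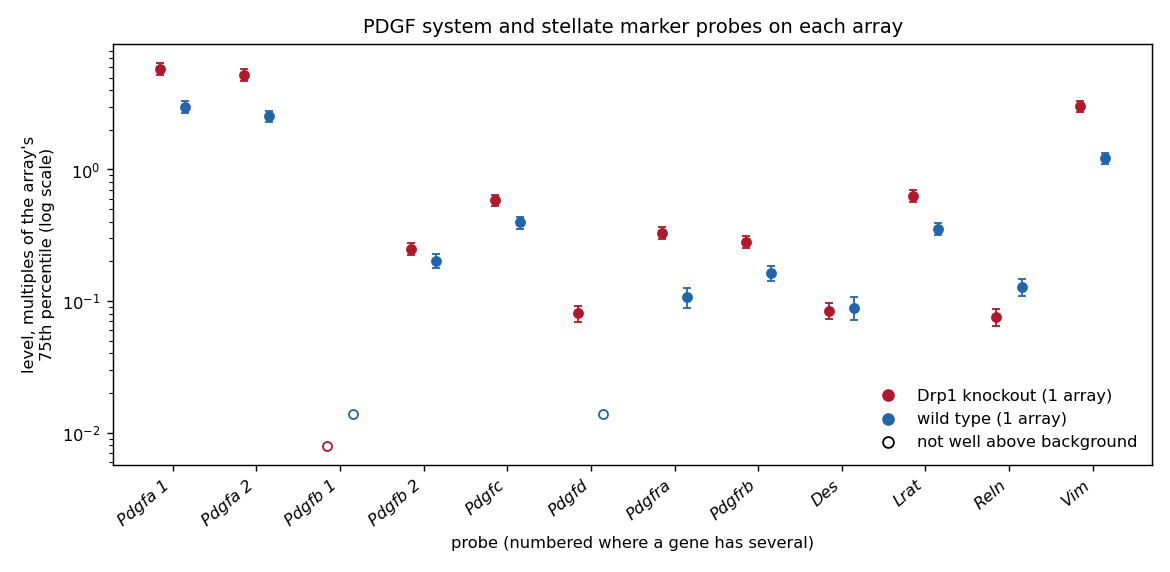
Scaled level (log axis, multiples of the 75th percentile of the array) of each of the 12 member probes on the Drp1 knockout array (red, left of each pair) and the wild type array (blue, right); bars are the spot error given by Feature Extraction, averaged over spots where a probe has 10, and open circles were not well above background. The knockout point lies above the wild type point for Pdgfa (5.85 and 5.27 against 3.00 and 2.53), Pdgfra, Pdgfrb, Lrat and Vim, and below it for Reln (0.0760 against 0.127).

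The stellate markers did not move as a group. Vim, the vimentin filament protein of mesenchymal cells (chr2:13504232-13504291, plus strand), had a signal of 2177 ± 218 on the knockout array and 559 ± 56.2 on the wild type array. The scaled levels were 3.02 in the knockout and 1.21 in the wild type, and the log2 difference was 1.31 ± 0.20, at rank 215 of 15385 from the top. Lrat, lecithin retinol acyltransferase, which makes the retinyl esters that stellate cells store (chr3:82696805-82696864, minus strand), had scaled levels of 0.632 in the knockout and 0.353 in the wild type. Its log2 difference was 0.84 ± 0.21, at rank 664 from the top.

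Reln went the other way. Reln encodes reelin, a large secreted glycoprotein that marks stellate cells in rodent liver. Its signals were almost equal before scaling, at 54.8 ± 7.86 on the knockout array and 58.6 ± 8.63 on the wild type array. Scaled for the brighter knockout array they became 0.0760 in the knockout and 0.127 in the wild type, a log2 difference of -0.74 ± 0.30. Reln is in the dimmest of the 10 groups by level, where 25.1% of genes passed 1.5-fold downward in the knockout and the median difference was -0.25. Its difference was -0.58 after loess normalization, just short of 1.5-fold. Scaling to spike-in spots raised every gene by the same 0.82 and put Reln at 0.08, which left its distance from the median of all genes at -0.63.

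Des, desmin, the intermediate filament protein of muscle and of rodent stellate cells, showed no difference beyond the spread of its spots. The 10 spots on the knockout array read scaled levels of 0.0704 at the lowest, 0.0868 at the median and 0.115 at the highest, and the 9 usable spots on the wild type array 0.0628, 0.0907 and 0.120. The spots of the arrays overlapped throughout, and the difference was higher in the knockout at 4 positions and lower at 5. The array means differed by -0.08 on the log2 scale. Over the 9 positions usable on both arrays the difference ran from -0.53 to 0.47, with a mean of -0.05 (SD 0.30). On the knockout array 10 of 10 spots were above background, and on the wild type array 6 of 9. A further wild type spot at 0.274 was marked as an outlier and left out, and with it the difference would be -0.24. After loess normalization the difference was 0.13, and it was -0.29 both with normexp and with the deposited value table.

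**Figure D3:**
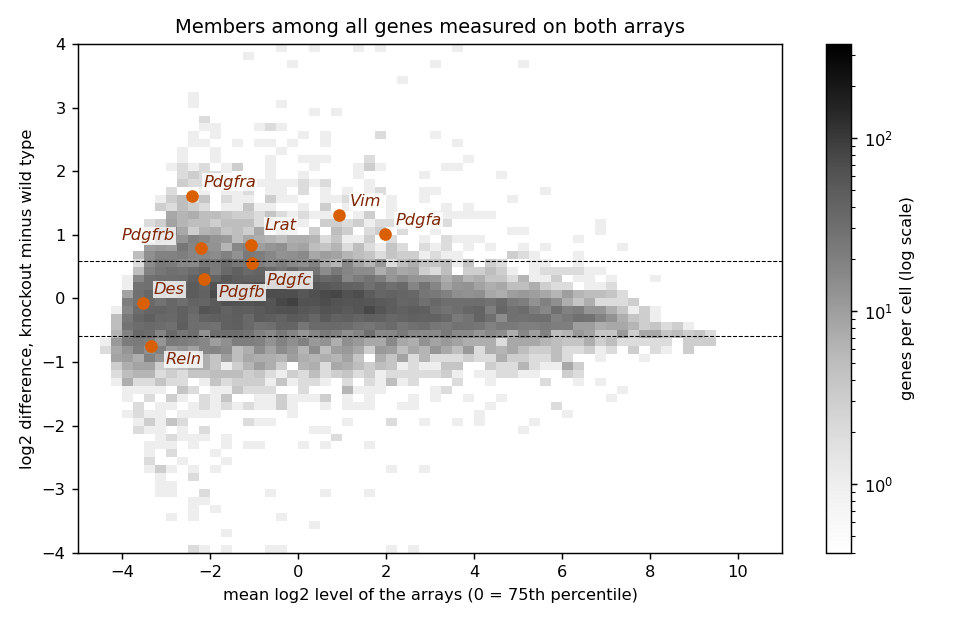
Log2 difference (knockout minus wild type) against the mean log2 level of the arrays for the 9 members measured on both (orange) over all 15385 measured genes (grey cells, darker for more genes on a log scale; differences beyond 4 are drawn at the edge); dashed lines mark 1.5-fold. Pdgfra (1.62), Vim (1.31), Pdgfa (1.01), Lrat (0.84) and Pdgfrb (0.80) lie above the upper line, Reln (-0.74) below the lower one, and Pdgfc, Pdgfb and Des between.

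Markers of several cell types that hold the members' RNA were read beside them, in lists that do not contain the members. Some genes, such as Gfap, stand in more than 1 list. The list counts are to be read against all measured genes, of which 8.42% passed 1.5-fold upward and 13.4% downward. That upward share depended on level. It was 18.5% in the second-dimmest of the 10 groups by level and 1.49% in the brightest. The lists were not matched for level, so for lists with many dim genes the 8.42% is only a rough guide. The list of quiescent stellate cell genes had 27 measured genes, of which 8 passed 1.5-fold upward, 0 passed it downward and 19 lay between. Its median was 0.48, against -0.11 for all genes, and its summed scaled level was 137 in the knockout and 101 in the wild type. With normexp the median was 0.32, and under a stricter filter on dim probes 0.26. The endothelin receptor Ednrb differed by 1.28, the matrix protein Adamtsl2 by 1.27 and the pericyte regulator Rgs5 by 0.97. Hgf, hepatocyte growth factor, which stellate cells secrete, differed by 0.48 and stayed short of 1.5-fold. Gfap and Bambi, also listed as stellate genes, were not well above background on either array.

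Activated stellate cell and myofibroblast genes had 9 of 18 higher and 1 lower, and their median was 0.68. With normexp the median was 0.35, and under the stricter filter 0.29. The collagen chains Col6a3 and Col1a1 differed by 1.78 and 1.67, the collagen-binding proteoglycan Lum by 1.48 and the connective tissue growth factor Ccn2 by 1.38. Acta2, the smooth muscle actin that marks myofibroblasts, had scaled levels of 0.345 in the knockout and 0.197 in the wild type, a difference of 0.81. The gene that was lower among those measured on both arrays was Fn1, fibronectin, also a plasma protein of hepatocytes. Fn1 read 53.4 in the knockout and 91.2 in the wild type. It held most of the summed level of the list, which was 77.2 in the knockout and 111 in the wild type. A further 6 genes were above background in the knockout only, among them the gelatinase Mmp2, at least 4.23-fold higher, and Tgfb2, at least 3.56-fold higher. Of the same 6, Fap and Cdh11 had bounds of 0.96 and 0.84, and a bound below 1 shows no increase. Cthrc1 of the same list was above background in the wild type only, at least 2.64-fold lower in the knockout. These lists were drawn up with the collagen and Pdgfra differences of the same arrays known, so they lend the members no independent support.

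Neighbouring mesenchymal cells gave sparser readings. Of 8 measured genes of portal fibroblasts and mesothelium, 2 were higher (Msln at 0.72 and Entpd2 at 0.69), 1 was lower (Pi16 at -0.83), Gas6 differed by -0.31 and the median was 0.25. With normexp that median was -0.09. A further 4 genes of that list were above background in the knockout only. Wt1 was at least 1.98-fold and Dpt at least 1.70-fold higher, while Upk3b and Gpm6a had bounds of 1.18 and 0.75. The summed level of the list was 10.0 in the knockout and 10.5 in the wild type, of which Gas6 alone held 6.36 and 7.89. Of 13 genes of vascular smooth muscle and pericytes only 4 were measured on both arrays, with the channel subunit Kcnj8 at 0.95, Higd1b at -0.92, Ndufa4l2 at -0.25, Mcam at 0.09 and a median of -0.08. A further 4 were above background in the knockout only. Lmod1, an actin-binding protein of smooth muscle, was at least 4.47-fold higher, while Cnn1, Notch3 and Actg2 had bounds of 1.09, 0.95 and 0.92. More probes were above background on the knockout array in general (57.1% against 50.5%). The summed level of the list was 72.7 in the knockout and 68.3 in the wild type, of which Mcam alone held 71.6 and 67.3. The defining smooth muscle genes Myh11 and Myocd were not well above background on either array.

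Vim and Pdgfb are made by many cells, so markers of other sources are given with them. Macrophage and Kupffer cell genes had 7 of 14 higher and 1 lower in the knockout (Itgam at -0.88), with a median of 0.46. That median was 0.60 both with loess and with quantile normalization, 0.36 with normexp and 0.30 under the stricter filter. Their summed levels were 101 in the knockout and 81.3 in the wild type. Trem2 and Gpnmb, which macrophages in fat-laden tissue express, differed by 2.43 each, the scavenger receptor Marco by 1.65 and Cd14 by 1.60. Endothelial genes had 2 of 17 higher (Lyve1 at 0.93 and Pecam1 at 0.84) and 1 lower (Pdpn at -0.67), while Emcn differed by 0.50. Tek was above background in the knockout only, at least 2.67-fold higher. The endothelial median was 0.04, with summed levels of 48.0 in the knockout and 50.1 in the wild type. Of 5 measured platelet genes 0 were higher and 1 was lower (Gp1bb at -0.84), with a median of -0.02 and summed levels of 3.90 in the knockout and 3.19 in the wild type. Pf4, platelet factor 4, differed by 0.39, Clec1b by 0.41 and Ppbp by -0.24. Bile duct genes had 3 of 6 higher (among them Spp1 at 1.40 and Sox9 at 1.24) and 1 lower (Slc4a2 at -0.69), with a median of 0.45. That median was 0.60 with loess, -0.06 with normexp and -0.69, the value of Slc4a2, under the stricter filter. A further 2 were above background in the wild type only, Cftr at least 2.21-fold and Cldn4 at least 1.95-fold lower in the knockout. Krt7, seen in the knockout only, had a bound of 0.67. Their summed levels were 8.45 in the knockout and 12.3 in the wild type, of which Slc4a2 alone held 7.06 and 11.4. The part of any of these cells in the member values was not tested.

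Skeletal muscle transcripts bear on Des, which muscle makes in quantity. Of 21 muscle genes 10 were above background in the wild type only, 5 on both arrays and 6 on neither. Their summed scaled level was 1.61 in the knockout and 17.2 in the wild type. Acta1, skeletal muscle actin, read 0.0292 in the knockout and 1.05 in the wild type, at least 28.6-fold lower in the knockout. Ckm, the muscle creatine kinase, was at least 6.71-fold lower. Of the 5 measured on both arrays 3 were lower, namely Tnni2 at -4.18, Tpm2 at -2.35 and Pvalb at -1.35. Neb differed by -0.42, and the median was -1.35. The part of muscle RNA in the wild type Des signal was not tested, and neither was that of fat tissue in any member. Of the 5 adipocyte genes measured, Cfd at -5.07 and Cidea at -3.12 were lower and Lpl at 0.98 was higher. Pparg differed by 0.40 and Fabp4 by 0.01, which was also the median. The summed level was 6.63 in the knockout and 13.3 in the wild type. Adipoq, Lep, Plin1 and Retn were not well above background on either array.

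The hepatocyte genes checked the tissue label. Alb, serum albumin, read a scaled level of 604 in the knockout and 865 in the wild type, and all 15 listed genes were measured on both arrays. In the knockout 2 were higher (Tat at 1.04 and Cps1 at 0.60), 7 were lower and 6 were neither. The median was -0.58, with summed levels of 3577 in the knockout and 5318 in the wild type. Ahsg at -0.69, Fga at -0.67 and Apoa2 at -0.66 were the lowest. This median was -0.12 after loess normalization and 0.01 after quantile normalization, so the direction of the list is not settled by these arrays. It was 0.25 with spike-in scaling, which shifts all genes alike. The member differences are likewise relative to the signals of their own array.

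**Figure D4:**
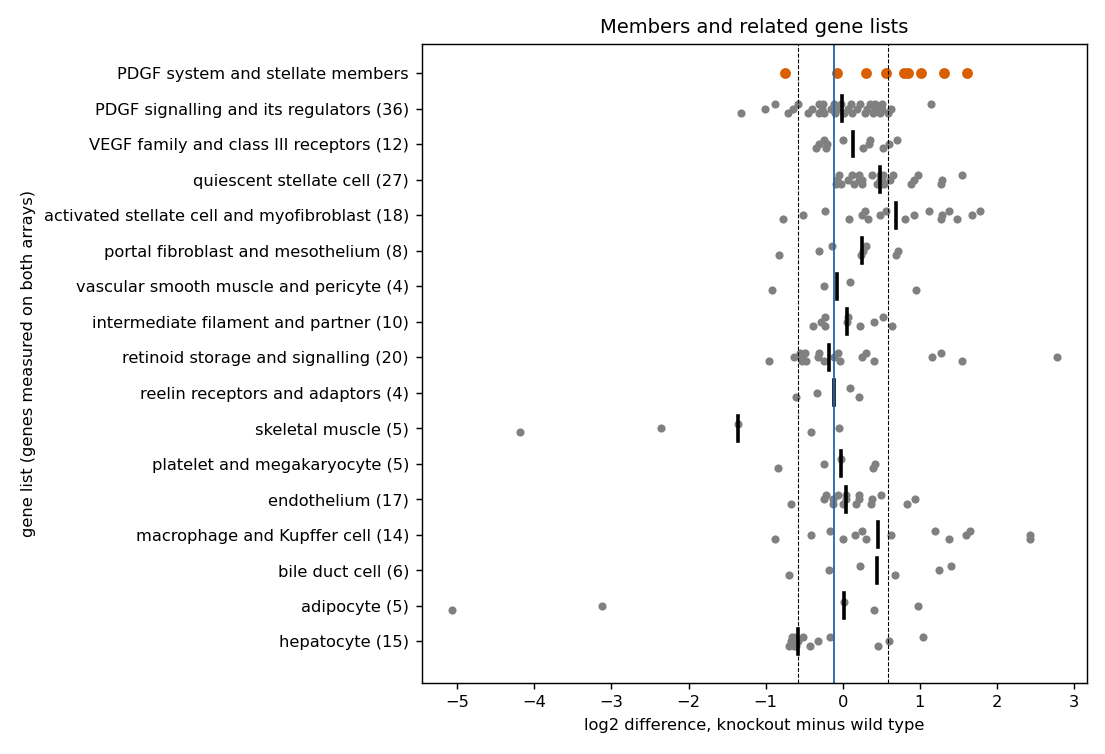
Log2 differences (knockout minus wild type) of the 9 measured members (orange, top row) and of the genes measured on both arrays in each of 16 lists (grey, 1 dot per gene; number of genes in brackets); thick bars are list medians, the blue line is the median of all genes (-0.11) and dashed lines mark 1.5-fold. The medians of the quiescent (0.48) and activated (0.68) stellate lists lie right of the blue line, and that of the skeletal muscle list (-1.35) far left.

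Genes that act with the members in PDGF signalling had a median near that of all genes. Of 36 measured genes of the list, 2 passed 1.5-fold upward and 6 downward, and the median was -0.01. Over all measured genes 8.42% passed upward and 13.4% downward. Spry1, a feedback inhibitor of receptor tyrosine kinases, differed by 1.14 and Rasa1, a Ras GTPase-activating protein, by 0.63. On the lower side were Plcg1, the phospholipase that docks on activated PDGF receptors, at -1.32 (probes at -2.40 and -0.24), the co-receptor Nrp1 at -1.01 and Pik3r1, the regulatory subunit of phosphoinositide 3-kinase, at -0.88. Sparc, a matrix protein that binds PDGF-B, had scaled levels of 5.58 in the knockout and 3.91 in the wild type, a difference of 0.51 (probes at 0.20 and 0.82). Plat and Plau, the proteases that release PDGF-C and PDGF-D, were not well above background on either array. In the related VEGF and class III receptor families 2 of 12 measured genes were higher (Flt3l at 0.70 and Il34 at 0.60) and 0 were lower, with a median of 0.13. The receptor Kit differed by 0.52 and the ligand Vegfb by -0.35.

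Around Lrat, retinoid genes were read in the same way. Retinoid storage and signalling had 20 measured genes, 4 of them higher and 2 lower, and a median of -0.18. Over all measured genes 8.42% passed upward and 13.4% downward. The list median was -0.02 both with quantile and with loess normalization. Among the higher genes were Cyp26a1 at 2.78, Cyp26b1 at 1.28 and Rarb at 1.16. Cyp26a1 and Cyp26b1 break down retinoic acid, and Rarb is a retinoic acid receptor whose gene retinoic acid induces. Cyp26a1 read 0.571 in the knockout and 0.0832 in the wild type. The lower genes were Bco2, which cleaves carotenoids, at -0.96 and the retinol carrier partner Ttr at -0.63. Ttr also stands in the hepatocyte list.

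Around Reln, Vldlr, a receptor for reelin and for lipoproteins, was the 1 of 4 measured genes that was lower, at -0.60, and 0 were higher. The adaptors Dab1 and Dab2 differed by -0.33 and 0.21, the median was -0.12, and the receptor Lrp8 was not well above background on either array. Among other intermediate filament genes and partners, set beside Vim and Des, 1 of 10 was higher (Krt8 at 0.64) and 0 were lower, with a median of 0.06. Krt18, the partner of Krt8 in hepatocytes, differed by 0.40, Prph by -0.38 and Lmnb2 by -0.29.

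Promoter sequence was compared because several members were higher together. RefSeq promoters (GRCm38.p6), matched by symbol, were used for 8 of the 10 members, in 9 windows, each covering the 250 bases before the start site. Pdgfrb was left out of this comparison, and Pdgfb had no window in it. Motifs searched on both strands were the GC box GGGCGG, the TATA box TATAAA, the CCAAT box, the AP-1 site TGANTCA and the CArG box, and no matches overlapped in the windows shown. The windows of Pdgfa (chr5:138994945-138995194, minus strand), Vim (chr2:13574061-13574310, plus strand), Pdgfra (chr5:75152001-75152250, plus strand) and Reln (chr5:22344706-22344955, minus strand) are shown, the first 3 as the members with the greatest differences and Reln as the one that was lower, with matches in capitals.
Pdgfa: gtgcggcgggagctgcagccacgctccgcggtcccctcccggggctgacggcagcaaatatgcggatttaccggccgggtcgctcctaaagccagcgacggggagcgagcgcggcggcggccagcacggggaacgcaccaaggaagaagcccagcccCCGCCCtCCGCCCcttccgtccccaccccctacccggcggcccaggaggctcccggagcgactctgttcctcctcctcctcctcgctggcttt
Vim: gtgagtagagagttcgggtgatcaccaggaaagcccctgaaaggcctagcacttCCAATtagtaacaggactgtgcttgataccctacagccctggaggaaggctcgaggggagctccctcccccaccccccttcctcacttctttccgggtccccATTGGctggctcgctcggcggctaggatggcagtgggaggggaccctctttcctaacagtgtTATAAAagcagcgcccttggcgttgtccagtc
Pdgfra: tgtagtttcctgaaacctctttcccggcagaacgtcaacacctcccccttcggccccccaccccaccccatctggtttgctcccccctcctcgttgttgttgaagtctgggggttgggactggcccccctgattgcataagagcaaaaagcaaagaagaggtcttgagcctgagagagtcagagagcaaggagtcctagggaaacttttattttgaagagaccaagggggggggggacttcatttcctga
Reln: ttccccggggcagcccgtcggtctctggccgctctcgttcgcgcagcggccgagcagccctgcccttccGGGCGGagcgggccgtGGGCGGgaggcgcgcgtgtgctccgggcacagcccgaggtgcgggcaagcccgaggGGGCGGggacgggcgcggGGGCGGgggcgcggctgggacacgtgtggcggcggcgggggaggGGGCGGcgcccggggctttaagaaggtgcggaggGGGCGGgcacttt
The Pdgfa window shown held 2 GC boxes and a further Pdgfa window 1, the Reln window 6, the Des window 2 and the Lrat window 1, and 32.7% of all 32851 promoter windows held at least 1. The Vim window held a TATA box 32 bases before the start site, as 12.4% of windows do somewhere, and 2 CCAAT boxes, a motif found in 33.8%. The Pdgfd window held a TATA box 160 bases before the start site. The Lrat window held 1 CCAAT box, and the Pdgfra window held none of the 5 motifs. The AP-1 site was in none of the 9 member windows compared and in 6.75% of all windows, and the CArG box was in the Pdgfc window and in 1.47% of all. The GC content was 72.4% for Pdgfa, 58.4% for Vim, 54.4% for Pdgfra and 80.0% for Reln, against a median of 52.4% over all windows. A match in these letters is a description and not a bound site.

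The processing moved some members more than others. The differences of Pdgfra, Vim, Pdgfa, Lrat and Pdgfrb were positive under each of the settings in which they were measured. Under the stricter filter on dim probes Pdgfra and Pdgfrb were not measured. With normexp, Pdgfrb alone of these fell short of 1.5-fold, which is 0.585 on the log2 scale. Lrat, at 0.588 with normexp, passed it only barely. Relative to the median of all genes under the same setting, Vim ran from 1.36 to 1.62, Pdgfa from 1.08 to 1.32, Pdgfra from 0.89 to 1.93, Lrat from 0.71 to 1.15, Pdgfrb from 0.49 to 1.11 and Reln from -0.79 to -0.43. Pdgfb, Pdgfc and Des were within 1.5-fold under all scalings other than spike-in spots, where they differed by 1.13, 1.38 and 0.75. The median of all genes moved by the same 0.82.

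**Figure D5:**
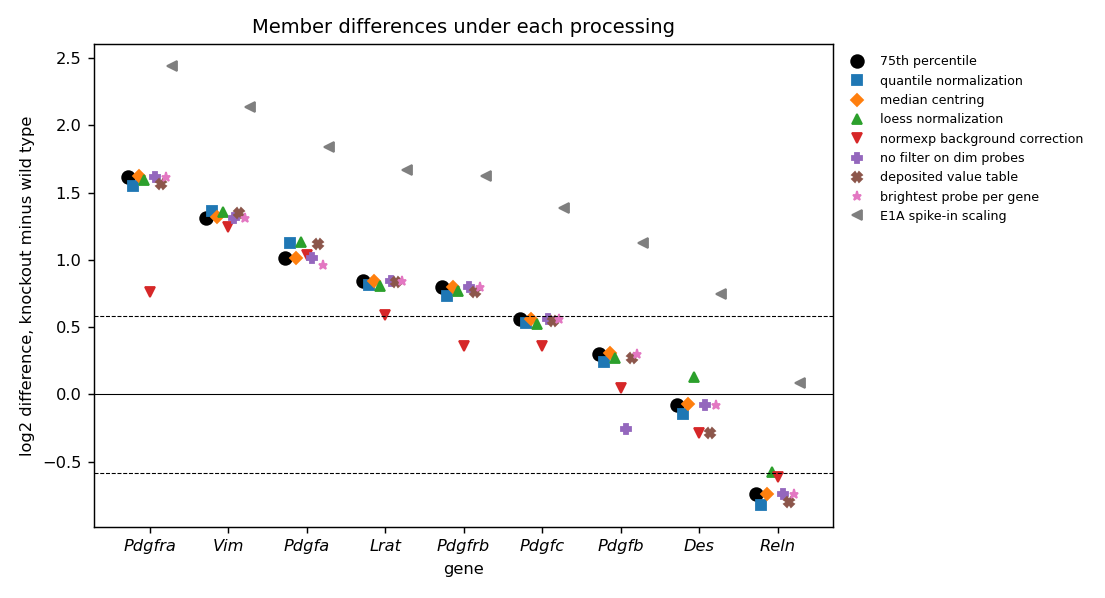
Log2 differences (knockout minus wild type) of the 9 measured members under the 75th percentile scaling (black circles) and 8 alternatives (other symbols); dashed lines mark 1.5-fold. Pdgfra at 1.62, Vim at 1.31 and Pdgfa at 1.01 stay above the upper line under all settings drawn. The red triangles of normexp bring Pdgfra and Pdgfrb down to 0.76 and 0.36, and the grey triangles of spike-in scaling lie above all others. The stricter filter on dim probes, under which Pdgfra and Pdgfrb, among others, were not measured, is not drawn.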

How the data were processed

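Total liver RNA was labelled with Cy3 and hybridised to 1-colour Agilent mouse arrays, per the labels' protocols. The intensities were made by Feature Extraction (version 9.5.1.1 per the submitters' processing notes, module version 10.7.1.1 per the file headers), which detrended each array, also per the file headers. The deposited value table also holds intensities, with equal medians of 45.9, and served as an alternative.

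Control spots and spots marked as non-uniform or population outliers were left out, and 0 spots were saturated. Signals were scaled to the 75th percentile of each array and log2-transformed, and spots of a probe and then measured probes of a gene were averaged. A gene seen on 1 array only has a lower bound, its level there over the higher of 2 values of the other array, its own level and the lowest level well above background. Normexp (offset 50), loess (span 0.3) and quantile settings used limma 3.58.1 in R 4.3.3, and counting was tested on simulated data. Probes were named through a RefSeq gene table, 26761 by accession and 4453 by symbol, while 8215 kept the name in the file. The scanner files give the probe positions in mm9.

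The members and the 16 lists were chosen with earlier results of these data known. Named are all members, in each list up to 4 measured genes with the greatest difference whose probes share a sign, and set markers. Rasa1, Bco2, Ttr, Itgam, Cps1, Fn1, Mmp2, Tgfb2, Gfap, Bambi, Myh11, Myocd, Adipoq, Lep, Plin1, Lrp8, Wt1, Dpt and Lmod1 were named after their values were seen. So were Cthrc1, Cdh11, Fap, Cftr, Cldn4, Krt7, Cnn1, Actg2, Notch3, Upk3b, Gpm6a, Tek, Fabp4 and Retn. Some genes that the rule names are not reported here.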

Additional observations from a re-analysis of the deposited data

How the results depend on the processing

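The count of 5 members at least 1.5-fold higher in the knockout was the same with quantile normalization, median centring, loess normalization, the deposited value table and the brightest probe per gene. It was 4 with normexp (Pdgfrb dropped out), 6 without the filter on dim probes (Pdgfd came in), 8 with spike-in scaling, 3 under the stricter filter, which measured only 4 members, and 3 at 2-fold. The count of 1 lower member, Reln, became 0 with loess normalization, spike-in scaling, the stricter filter and the 2-fold threshold, and with spike-in scaling Reln turned to 0.0815, through a shift of 0.82 that all genes shared. Over all genes, 1296 were higher and 2060 lower. These counts became 9600 and 192 with spike-in scaling, 3164 and 11307 without the filter, 655 and 1269 under the stricter filter, 447 and 560 at 2-fold, and 658 (higher) with normexp. The share of higher among all such calls was 38.6%, 49.3% after loess normalization, 98.0% with spike-in scaling and 21.9% without the filter. Loess normalization moved the median of all genes by 0.11 and the absence of a filter by -0.20. The E1A spike-in spots were 0.18 log2 units dimmer on the knockout array while its 75th percentile was 0.65 brighter, and the cause was not tested. Pdgfb is -0.26 without the filter because its dim probe then enters the mean. No paired analysis was possible because each group has 1 array. The number of arrays limits the precision, and Reln, Des and Pdgfd lie near background.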
